A study of Drosophila melanogaster with 2 samples.

Results

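The Notch pathway core genes of Drosophila melanogaster were examined for binding of the CG33017 protein. They are 10 genes named for their place in the pathway, N, Dl, Ser, Su(H), mam, H, fng, kuz, neur and numb, out of 13945 protein-coding genes on arms 2L, 2R, 3L, 3R, 4 and X. Chromatin immunoprecipitation and sequencing was done on whole adult males of 1 transgenic line that stably makes CG33017 with GFP at its C-terminus, in 2 biological replicates of 1 group. Precipitation was against GFP by the sample description, although CG33017 is what the labels list as antibody. The flies' age is recorded as unknown, and the labels name neither the transgene's promoter nor the number of flies per sample. There was no second condition. An untagged line was not analysed here, and background of the precipitation cannot be told apart from binding. Chromatin came from whole animals, so binding in few cells and weak binding in many cannot be told apart. All values come from 4 peak lists on dm6, namely 1 list of 30000 peaks per replicate, 1 of 30000 peaks for the pooled replicates, and a list of 4867 peaks that the authors kept for their reproducibility between replicates, by irreproducible discovery rate (IDR). The 4867 IDR peaks are those of highest signal in the pooled list. Each peak has a summit and the authors' signal value, which ranks peaks within a list (rank 1 is the highest) but cannot be compared between lists. Read depth is unknown from these lists.

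Notch is a transmembrane receptor that is switched on by Delta or Serrate on a neighbouring cell. Ligand binding leads to cleavage by the metalloprotease Kuzbanian and then by gamma-secretase, which frees the intracellular domain to enter the nucleus. There it joins the DNA-binding protein Suppressor of Hairless and the coactivator Mastermind at target genes such as those of the Enhancer of split complex. In adult flies the pathway is known for its part in the fate of intestinal stem cell daughters.

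All 10 genes had at least 1 pooled summit in the gene body or within 2 kb of it, as did 80.3% of protein-coding genes, and together they held 107 such summits. Many of these are weak: the deposited −log10 q-value was 0.549 at the weakest of the 107 and 4.05 at the strongest. Counts and densities from the pooled list are thus of listed peaks, and a listed peak is not by itself evidence of binding. The peaks of the IDR list were found at 4 of the 10, neur, fng, numb and mam, which held 4, 1, 2 and 7 of them. The background was 39.1% of protein-coding genes, counted over windows of each gene's own length. These shares were not matched for window length. With overlaps counted once, the windows covered 361.7 kb for the 10 genes and 103107.5 kb for the 13945. Per 10 kb, the windows of the 10 genes held 0.387 IDR summits, against 0.455 over all protein-coding windows. The receptor gene N, both ligand genes, Su(H), H and kuz had none. A gene was called bound when a summit lay within 500 bp of any of its annotated transcription start sites (TSSs). By this rule neur, numb and mam were bound in the IDR list, 3 of 10 against 23.8% of protein-coding genes. The same 3 were bound in the 4867 highest-signal peaks of each replicate, where the background was 22.5% in replicate 1 and 24.1% in replicate 2. The share among these 10 genes is therefore near the background.

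**Figure D1:**
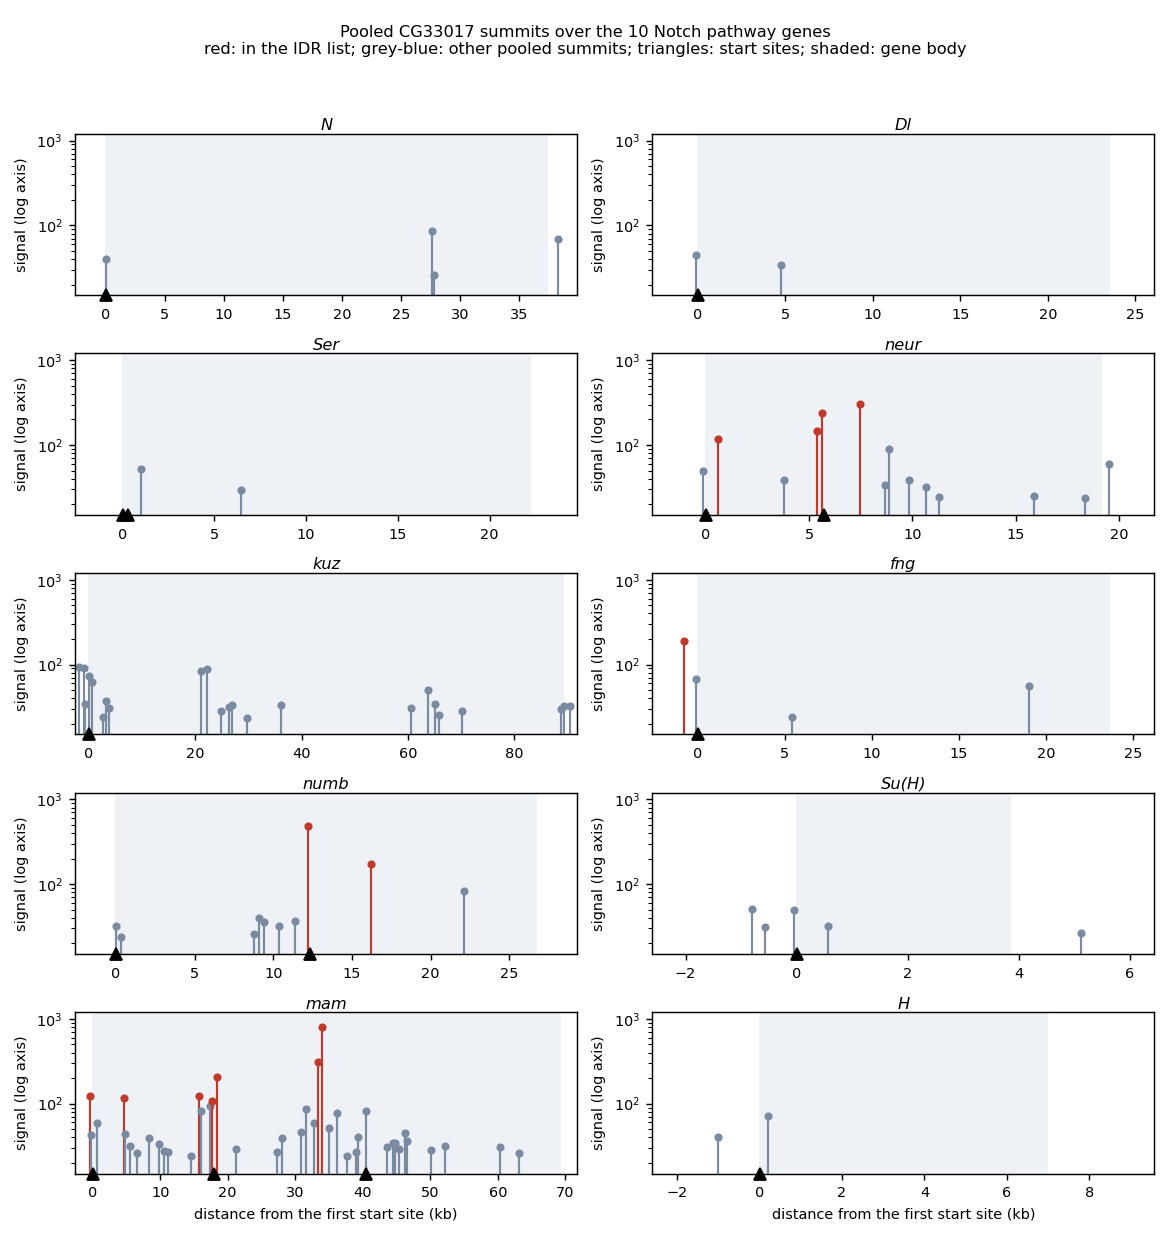
Pooled CG33017 summits over each gene, with the distance from the gene's first start site in kb on the x axis and the authors' pooled signal on a log axis. Red stems are the 14 IDR summits, found at neur, fng, numb and mam, grey-blue stems are the other 93 pooled summits, triangles are annotated start sites and shading is the gene body.

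The inhibitor gene numb held the strongest promoter peak of the 10 genes. Numb is an endocytic adaptor that is shared out unequally at asymmetric cell divisions and blocks Notch signalling in the daughter that receives it. The gene (FBgn0002973, 2L, 9437469 to 9464184, plus strand) has 2 TSSs that lie 12361 bp apart. At the inner TSS the pooled signal was 480.5, with the summit 145 bp upstream and a rank of 403. Replicate 1 gave a signal of 240.4 and rank 439 there, and replicate 2 a signal of 245.5 with a rank just above that in the pooled list. At the first TSS the strongest pooled signal was 32.3 (rank 20444), at a summit 31 bp upstream that no replicate 1 peak overlapped. The strongest summit within 500 bp of this TSS ranked 13173 in replicate 1, 397 bp downstream. In replicate 2 it ranked 18190, 19 bp upstream. Both replicates thus placed the inner start far above the first. A second IDR summit lay in an intron 3869 bp downstream of the inner TSS, with signal 170.9 and ranks of 3052 and 1755 in replicates 1 and 2. The pooled list held 10 summits in the window, and the highest of those outside the IDR list was intronic and lay 9751 bp downstream of the inner TSS (signal 83.7, rank 6605). The inner promoter peak is shown because it is the highest promoter peak of the 10 core genes, on the plus strand of dm6 at chr2L:9449549-9449771, which lies wholly upstream of the inner TSS inside an intron. Bases here and below are those of the RefSeq genome. Capitals mark matches to GAGAG or its reverse complement CTCTC, the core of the GAGA factor's site.
numb inner promoter peak: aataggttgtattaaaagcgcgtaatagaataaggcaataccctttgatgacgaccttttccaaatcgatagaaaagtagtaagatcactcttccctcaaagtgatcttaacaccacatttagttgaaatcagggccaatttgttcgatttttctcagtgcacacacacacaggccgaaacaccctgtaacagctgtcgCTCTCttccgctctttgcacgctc

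The gene neur carried 4 IDR summits over 19124 bp. Neuralized is a ubiquitin ligase that drives endocytosis of Delta in the signal-sending cell. The gene (FBgn0002932, 3R, 9020348 to 9039471, minus strand) has its first TSS at 9039471 and an inner TSS 5740 bp further in. The highest summit lay in an intron 1701 bp downstream of the inner TSS, with a pooled signal of 300.2 and rank 911. Its signal was 131.4 in replicate 1 (rank 1245) and 160.7 in replicate 2 (rank 803). At the inner TSS, summits 142 and 343 bp upstream had pooled signals of 237.4 and 144.2. Their intervals overlap. Replicate 1 held 1 peak within 500 bp of this TSS (signal 131.6, rank 1240), where replicate 2 held 2 (signals 103.9 and 71.8, ranks 1773 and 3202). The fourth IDR summit (signal 117.0) lay in a 5′ UTR of the opposite-strand gene hyx, 114 bp downstream of a TSS of hyx and 597 bp downstream of the first TSS of neur. Within 500 bp of that first TSS the strongest pooled signal was 49.6 (rank 12741), with ranks of 24335 and 11819 in replicates 1 and 2. As at numb, the inner start ranked above the first in each replicate.

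The highest intronic neur peak and the DNA around both summits at the inner start are printed in the direction of neur transcription (minus strand of dm6), since they are the strongest sites of the gene. They lie at chr3R:9031914-9032144, chr3R:9033798-9033948 and chr3R:9033999-9034149. Capitals mark TATAAA, the TATA box core, or GAGAG, on either strand. The intronic peak holds neither.
neur intronic peak: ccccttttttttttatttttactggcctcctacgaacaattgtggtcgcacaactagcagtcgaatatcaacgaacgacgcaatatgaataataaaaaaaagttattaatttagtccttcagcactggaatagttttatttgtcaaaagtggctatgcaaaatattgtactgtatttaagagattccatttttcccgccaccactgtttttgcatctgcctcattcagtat
neur inner start, nearer summit: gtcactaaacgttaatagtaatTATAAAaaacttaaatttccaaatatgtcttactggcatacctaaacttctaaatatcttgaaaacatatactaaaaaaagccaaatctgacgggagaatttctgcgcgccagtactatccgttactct
neur inner start, farther summit: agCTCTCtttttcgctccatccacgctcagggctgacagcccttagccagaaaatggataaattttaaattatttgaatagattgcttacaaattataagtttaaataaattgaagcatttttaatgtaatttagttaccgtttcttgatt

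The gene fng had a single IDR summit, which lay outside the gene. Fringe is a glycosyltransferase that extends O-linked fucose on the receptor and thereby shifts its response from Serrate toward Delta. The gene (FBgn0011591, 3L, 20925891 to 20949512, minus strand) has 1 TSS, and the summit was 790 bp upstream of it, in intergenic sequence and 481 bp downstream of the TSS of lncRNA:CR45243. Its pooled signal was 187.0 (rank 2010), with a signal of 84.9 in replicate 1 (rank 2564) and 102.7 in replicate 2 (rank 1805). A weaker pooled summit lay 102 bp upstream of the fng TSS itself, with signal 67.1 and rank 8844. Replicate 2 held 7 summits in the fng window and replicate 1 held 4. The 151 bp centred on the IDR summit are printed in the direction of fng (minus strand, chr3L:20950227-20950377), with the GAGAG match on the other strand in capitals, because this AT-rich stretch (22.5% GC) is the only IDR site near fng.
fng upstream summit: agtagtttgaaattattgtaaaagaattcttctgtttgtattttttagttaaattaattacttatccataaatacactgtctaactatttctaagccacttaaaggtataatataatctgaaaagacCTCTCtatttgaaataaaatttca

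The IDR summits at the 10 genes varied in base composition. The GC content of 50 bp each side of the summit had a median of 27.7% over the 14 IDR summits (19.8 to 57.4%), against a median of 34.7% over all 4867 and 39.6% over all 30000 pooled summits. The numb inner promoter summit was above these medians, at 44.6%. Short motifs were sought within 100 bp of each summit on both strands. GAGAG was found at 5 of the 14 summits, among them the numb inner promoter, the fng summit and both summits at the neur inner start, and at 27.1% of all IDR summits. At the nearer neur summit the GAGAG match lay within 100 bp but outside the shorter stretch printed above. TATAAA was found at 4 of 14, against 35.6%. The Su(H) site, taken as GTGGGAA or GTGAGAA, was found at 1 of 14, the neur summit near hyx, against 4.68% of all IDR summits. The E-box CACGTG was at 1 of 14, against 2.42%, and the DRE TATCGATA at 0 of 14, against 3.25%. These are matches of letters only.

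The most summits of the 10 genes were over mam, which encodes the coactivator Mastermind of the nuclear complex. The gene (FBgn0002643, 2R, 13991203 to 14060356, plus strand) held 41 pooled summits, of which 37 were intronic, and 7 IDR summits. The strongest peak of all 10 genes was an intronic one (14024969 to 14025333) with a pooled signal of 800.3 and rank 163. Its signal was 395.9 in replicate 1 (rank 179) and 420.6 in replicate 2 (rank 141). A second peak had its summit 628 bp away, toward the gene's start, with signal 309.3 and ranks of 1144 and 590. Both lay more than 3 kb from any TSS: the higher one was 3455 bp upstream of the nested gene CG18371 and 6498 bp upstream of the nearest mam TSS. Neither replicate placed another mam peak above these in rank, and the same 2 summits therefore lead the gene in both.

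The 3 mam TSSs differed in their peaks. At the second TSS, 17996 bp inside the first, IDR summits lay 406 bp downstream (signal 204.1, rank 1735) and 348 bp upstream (signal 107.5, rank 4701). The downstream one ranked 1252 in replicate 1 and 3361 in replicate 2. At the first TSS an IDR summit lay 395 bp upstream (signal 121.7) but only 101 bp upstream of the neighbouring gene RN-tre. This summit ranked 14544 in replicate 1 and 2099 in replicate 2, the largest difference between replicates among the 14 IDR summits. At the third TSS the strongest pooled signal was 82.8, with ranks of 7996 and 7008, and no IDR summit was present. The other 2 IDR summits were intronic, 4643 bp downstream of the first TSS (signal 117.8, ranks 4272 and 3608) and 2224 bp upstream of the second (signal 123.7, ranks 2046 and 8642).

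The inner starts of neur, numb and mam can be set beside other genes. Of 1752 protein-coding genes with a TSS more than 1000 bp inside the first, 321 (18.3%) had an IDR summit at such an inner TSS and none at the first, which was the arrangement at neur and numb. Another 136 had IDR summits at both, which was the arrangement at mam, 298 at the first and not at an inner one, and 997 at neither. No other pathway core gene has a TSS that far inside the first. Over single start sites, 4 of the 15 TSSs of the 10 genes had an IDR summit within 500 bp, against 22.4% of all protein-coding TSSs.

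**Figure D2:**
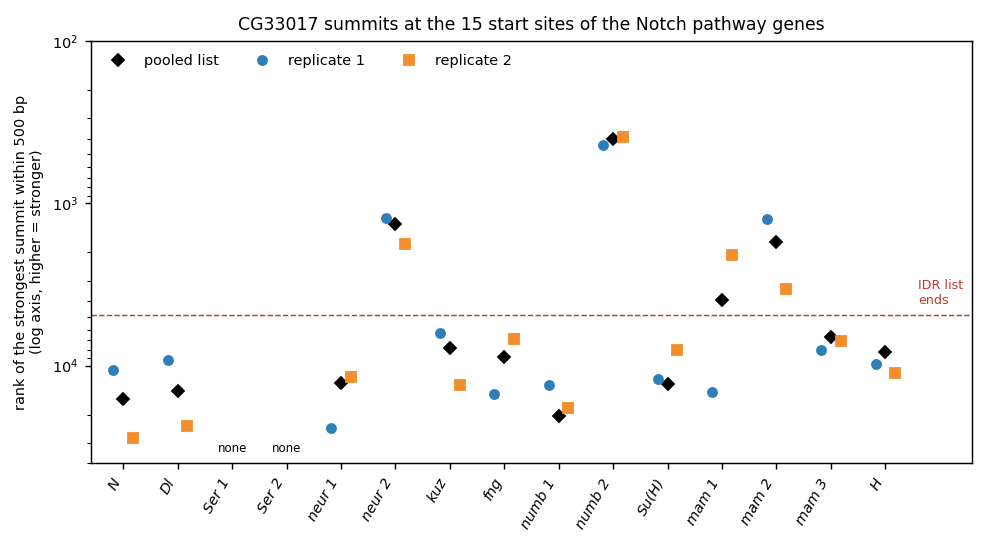
Rank of the strongest summit within 500 bp of each of the 15 start sites (log axis, stronger upward) in the pooled list, replicate 1 and replicate 2, with start sites numbered from the first one of each gene. Start 2 of numb ranks 403 in the pooled list and start 2 of neur 1347, both above the dashed line where the IDR list ends at rank 4867, while start 1 of each lies below it; Ser has no summit at either start.

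The receptor gene N had no IDR summit. It lies at X, 3134870 to 3172221, and held 4 pooled summits. The summit at its only TSS, 6 bp downstream, had a pooled signal of 40.2 and rank 15984. The strongest summit within 500 bp of that TSS had signal 30.9 in replicate 1 (rank 10669) and 16.1 in replicate 2 (rank 27849), so the replicates differed in where this site stood. The highest peak of N was intronic, 27631 bp downstream of the TSS, with pooled signal 85.6 (rank 6402) and ranks of 5467 and 7063. The last summit (signal 68.5) lay past the end of N and 53 bp upstream of CG18508.

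The ligand genes had few summits, with 2 pooled ones each, as had H. Dl (annotated as Delta, FBgn0000463, 3R, 19302731 to 19326217) had 2 pooled summits, one 93 bp upstream of its TSS with signal 44.3 and rank 14363. Its signal there was 35.3 in replicate 1 (rank 9193) and 18 in replicate 2 (rank 23494). Ser (3R, 27172090 to 27194267) was the only one of the 10 with no summit within 500 bp of a TSS in the pooled list. Its strongest summit lay in the gene 717 bp downstream of its inner TSS, with signal 52.2 (rank 12004) and ranks of 14687 and 9532. The second summit of each ligand gene had signal 34.2 at Dl and 29.6 at Ser, and for both a peak was found in replicate 2 and none in replicate 1. At 0.728 and 0.764 pooled summits per 10 kb, Dl and Ser lay below the 2.72 per 10 kb found over the windows of all protein-coding genes.

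The protease gene kuz had many weak peaks and no IDR summit. Its window (gene at 2L, 13550139 to 13639411) held 23 pooled summits, 18 of them intronic, with signals from 23.7 to 94.8. The deposited −log10 q-value was 0.550 at the weakest of them and 3.57 at the highest. The summit 35 bp upstream of the kuz TSS had signal 74.2 and rank 7758, with ranks of 6302 and 13218. The highest, at 94.8 (rank 5585), lay 423 bp upstream of a TSS of B4, the neighbouring gene, and was the strongest peak of the 10 genes outside the IDR list. The weakest inside it was the mam summit at 107.5. The 4867 highest-signal peaks of replicate 1 included 2 summits in the kuz window (ranks 4080 and 4510) and those of replicate 2 included 1 (rank 4180). The peak of rank 4180 in replicate 2 overlapped a pooled peak whose strongest partner in replicate 1 ranked 12884, so the replicates did not share these sites among their top peaks.

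The genes of the nuclear switch, Su(H) and H, had no peak that reached the IDR list. Su(H) (2L, 15039488 to 15043334) encodes the DNA-binding protein that Notch turns from a repressor into an activator. The summit 52 bp upstream of its TSS had pooled signal 48.9 (rank 12926), with signal 27.7 in replicate 1 (rank 12028) and 38.8 in replicate 2 (rank 8049). The highest of its 5 pooled summits, at 50.2, lay 172 bp downstream of a TSS of CIAPIN1 on the other side. Hairless, the product of H (3R, 20621938 to 20628915), binds Suppressor of Hairless and recruits corepressors. Its summit 200 bp downstream of the TSS had signal 71.3 (rank 8192), with signals of 33.4 and 30.7 and ranks of 9813 and 11103 in replicates 1 and 2. In the pooled list 9 of the 10 genes carried a promoter summit by the same distance rule, against 61.3% of protein-coding genes. The count was also 9 in each replicate's full list, against 61.0% and 59.2%. Of the 8555 protein-coding genes with such a pooled summit, the median strongest signal was 80.5. The signals at N, Dl, Su(H), fng, H and kuz, from 40.2 to 74.2, were below that median, and those at mam, neur and numb, from 204.1 to 480.5, were above it. Any gene bound in the IDR list lies above that median, since the lowest signal in the IDR list was 105.1. The deposited −log10 q-values of the strongest promoter summits were 1.51 at N, 1.80 at Dl, 2.06 at Su(H), 3.04 at H, 3.07 at fng and 3.08 at kuz, while the 14 IDR peaks all had 4.05.

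Summit density differed widely among the 10 genes. Their windows, 361.7 kb in all, held 0.387 IDR summits per 10 kb, against 0.455 over all protein-coding windows. The top lists of the replicates gave 0.387 ± 0.0391 per 10 kb (SD, n = 2), from 15 summits in replicate 1 and 13 in replicate 2. These were 0.415 and 0.359 per 10 kb, against 0.457 and 0.455 over all protein-coding windows in the same lists. The shortfall was thus larger than the spread between replicates, though it rests on few summits. The density in the IDR list rested largely on mam, and without it the other 9 genes held 7 IDR summits, 0.243 per 10 kb. In the pooled list the density was 2.96 per 10 kb, against 2.72. The full replicate lists gave 2.90 ± 0.469 per 10 kb (SD, n = 2), so that difference is smaller than the spread between replicates. Without mam the pooled density was 2.29 per 10 kb, below that of all protein-coding windows, so the direction rests on that gene.

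**Figure D3:**
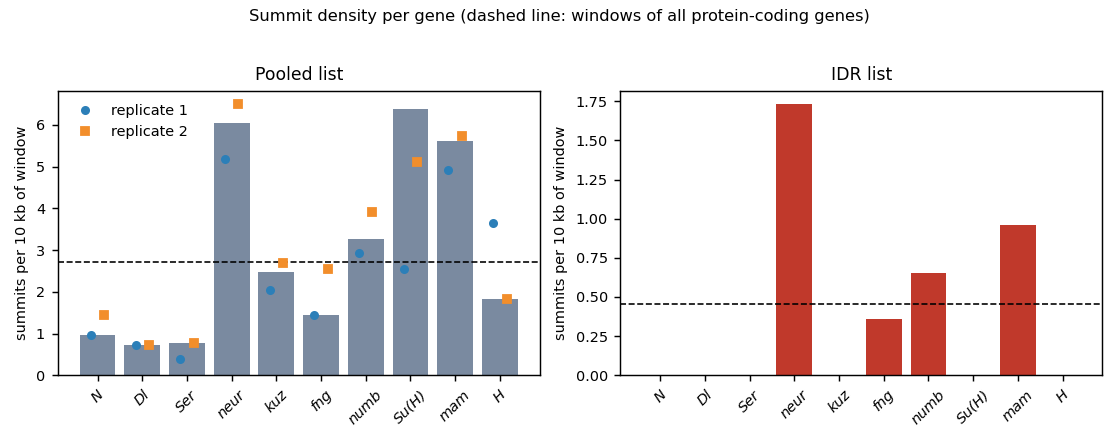
Summits per 10 kb of gene body and 2 kb each side, for each of the 10 genes in the pooled list (bars, with replicate 1 and replicate 2 full lists as points) and in the IDR list. The dashed line is the density over all protein-coding windows, 2.72 for the pooled list and 0.455 for the IDR list. In the pooled list neur, Su(H) and mam stand above it by over 2 summits per 10 kb, and Dl, Ser and N are lowest. The Su(H) bar rests on 5 summits in 7.85 kb, and its replicate 1 point, 2.55, is below the line.

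IDR summits at the pathway genes were mostly intronic. Of the 14, 11 lay in introns, 2 in intergenic sequence and 1 in a 5′ UTR, and none in coding sequence or a 3′ UTR. Introns thus held 78.6% (exact 95% Clopper-Pearson interval 49.2 to 95.3%), against 45.8% of all 4867 IDR summits. The share of the windows themselves that is intron was not taken into account. This interval and the next treat the 14 summits as independent, although mam held 7 of them and neur 4. They do not measure the spread between genes. A TSS of any gene lay within 500 bp of 8 of the 14 (57.1%, exact 95% interval 28.9 to 82.3%), against 61.0% of all IDR summits. In 6 of the 14 it was a TSS of the pathway gene itself.

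Each of the 14 IDR summits had a peak in both replicates, as had 4859 of all 4867. That follows from how the IDR list was made and says nothing particular about these genes. Of the 107 pooled summits, 69 had a peak in both (64.5%), 10 in replicate 1 only, 25 in replicate 2 only and 3 in neither, where 66.9% of all pooled summits had a peak in both. Spearman's rho of the replicate ranks was 0.75 over the 14 IDR peaks and 0.57 over the 69 peaks, which include those 14. Over all peaks it was 0.68 for 4859 IDR peaks and 0.73 for 20069 pooled peaks with a peak in both. These are descriptions across peaks that share 2 libraries and 1 control, and some pooled peaks share a replicate peak.

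**Figure D4:**
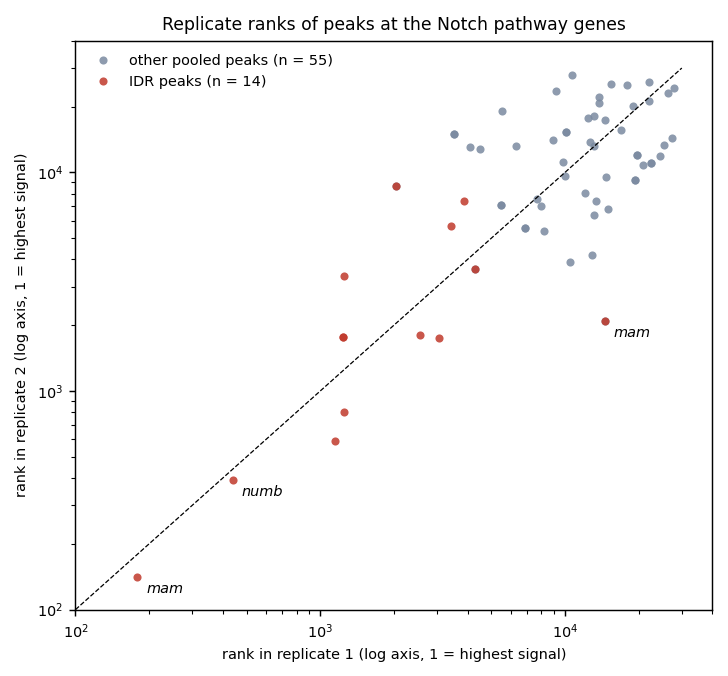
Rank in replicate 1 against rank in replicate 2 (log axes, 1 is the highest signal) for the 69 peaks at the pathway genes with a peak in both, with 14 IDR peaks in red and 55 other pooled peaks in grey-blue. The leading mam and numb peaks lie near the dashed line of equal rank, and the mam peak beside RN-tre lies far from it, at 14544 and 2099.

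Among 37 other genes of the pathway, 10 were bound in the IDR list (27.0%), against 23.8% of protein-coding genes, and each replicate's top list also gave 10, though not the same ones, since Psn was bound in replicate 1 in place of CtBP. The gamma-secretase gene aph-1 had a summit 437 bp upstream of its TSS (signal 540.9, rank 327), nearer to Snx21, at 131 bp. The other 3 gamma-secretase genes, Psn, Nct and pen-2, were not bound in the IDR list. The receptor glycosylation genes rumi, a protein O-glucosyltransferase gene (signal 317.1), and O-fut1, the protein O-fucosyltransferase gene (signal 172.3), were bound, and the xylosyltransferase gene shams was not. The O-fut1 summit lay 100 bp upstream of its TSS and nearer to that of CysRS-m, at 68 bp. Of 5 receptor trafficking genes, l(2)gd1, which encodes the endosomal protein Lgd, had the highest signal of all 37 at a TSS (758.8, rank 182, with ranks of 200 and 174). Nak (signal 149.3) and the ubiquitin ligase gene Su(dx) (signal 140.7) were also bound, and dx and spdo were not. The Nak summit lay 146 bp upstream of its TSS and slightly nearer to that of Tango6, at 138 bp.

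Of 5 genes for nuclear factors, 3 were bound: gro, the Groucho corepressor gene (signal 432.2, rank 489), nej, the histone acetyltransferase gene (signal 133.4), and CtBP, a corepressor gene (signal 121.3). Among the direct targets of Notch, 1 of 8 genes for bHLH repressors, E(spl)m3-HLH, was bound (signal 187.2, 375 bp upstream of its TSS), and 0 of 8 Bearded family genes, beside 23.8% of protein-coding genes. The same E(spl)m3-HLH summit lay 372 bp upstream of the TSS of lncRNA:CR43644. The E(spl)m8-HLH window held 2 IDR summits, one of which is the gro promoter peak. The metalloprotease genes Kul and Tace and the endocytosis genes mib1 and lqf were not bound. The window of Kul held a peak of signal 1114 (rank 83) that was not within 500 bp of its TSS.

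By rank in both replicates, the numb promoter peak was most like that shared by Myo95E and TBC1d7 (ranks 435 and 402, signal 472.6) and then that of CG7394 (ranks 453 and 401, signal 462.4). Likeness was the distance between log10 ranks in 2 replicates, 0.0116 for the first 2 genes and 0.0168 for CG7394.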

How the data were processed

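Peak lists from 2 biological replicates of 1 group were used. Per the deposited descriptions of the files, the authors called peaks on each replicate and on the pooled replicates against 1 control alignment, and derived an IDR list from all 3 lists, on dm6. Neither the aligner nor the peak caller is named there, nor the cut-off of the IDR step. The deposited signal of each peak was used to rank peaks within a list, and the deposited −log10 q-value was printed only. Peak lists carry no read counts, so the depth per sample is unknown, and intervals cover the counting of peaks only.

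Summits were placed on Ensembl release 115 (BDGP6, dm6 coordinates) without transposable elements, with Python 3.11.15, pandas 2.3.3 and scipy 1.17.1. Sequences were read from the NCBI copy of the same assembly. Dl, nct and lgd were matched through RefSeq synonyms to Delta, Nct and l(2)gd1. Peaks were matched between lists by an overlap of at least 1 bp, taking the strongest partner. Each replicate's 4867 highest-signal peaks gave the replicate error. There was no second group and hence no test between conditions, and nothing here measures variation between animals beyond the 2 replicates. The members and lists were chosen with earlier results of these data known. All 10 members are named, with the gene of the nearest TSS where it bears on a peak, the other pathway genes bound in the IDR list (up to 4 per role), and the 3 genes most like numb. Any further gene was named with its values already known. Counting was checked on planted summits. Alternatives were other distances, other flanks, the nearest TSS only, the upper 50% of IDR peaks by signal, interval midpoints and each replicate alone, and, chosen after seeing the data, merged intervals and the set without mam.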

Additional observations from a re-analysis of the deposited data

How the results depend on the processing

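The count of bound genes was 2 at 250 bp, where mam was lost, 4 at 1000 bp, where fng was added, and 3 in the other alternatives, including each replicate's own list. The number of IDR summits in the windows was 14, and it was 8 in the upper 50% of the IDR list by signal and, by a choice made after seeing the data, 7 without mam. Each replicate alone gave 13 to 15. The share of these summits within 500 bp of a TSS was 57.1%. It was 28.6% at 250 bp, 64.3% at 1000 bp, 50% in that upper part, and 40.0 to 46.2% with each replicate left out, so it was lower in either replicate's own list. The cause was not tested. The median rank of the strongest peak per gene was 5993.5 in the pooled list and 4773.5 to 5274 in the lists of single replicates. With 14 IDR summits, 1 summit moves a share by about 7.14 percentage points. No paired analysis was possible because there is 1 group.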

Other observations

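The strongest peak in the windows of all 47 pathway genes was not at any of the 10 core genes. It lay in the window of Kul, a metalloprotease gene related to kuz, with a pooled signal of 1114 and rank 83, and it was not counted at the Kul start because its summit was over 500 bp away. The core gene closest to it was mam, whose intronic peak had rank 163.

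Of the 10 core genes, those with more than 1 start site over 1000 bp apart, neur, numb and mam, were the 3 that were bound, and the 7 with a single start or with 2 close starts were not. This was noticed in the data and not tested. A gene with more starts also has more bases within 500 bp of one. Of the 1752 protein-coding genes with a TSS over 1000 bp inside the first, 321 had an IDR summit at such an inner TSS and not at the first. Another 136 had IDR summits at both, 298 at the first and not at an inner one, and 997 at neither. Of all protein-coding genes, 23.8% were bound.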
